A study of Mus musculus with 64 samples.

Results

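Lysosomal enzymes and proton pump genes of mouse microglia were followed as 40 genes, named by symbol, out of the 49671 genes of the count table. They comprised 9 cathepsins, 15 other hydrolases and cofactors, 8 lysosomal membrane proteins and 8 subunits of the proton pump or proteins bound to it. The genes are named by symbol and by no measured value, but the list was drawn up with earlier results of these data known. All 40 passed the filter on low counts in every comparison described here.

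The samples were 64 total RNA libraries of microglia from hippocampus or Frontal_cortex of adult male C57BL/6 mice (C57BL6/N in the study's methods), for which no transgene is named. The labels crossed the 2 regions with Day or Night and with 4 conditions named Soci, Cogn, Ctr0 and Ctr1, which gave 16 groups of 4 libraries. Cells were captured on CD11b magnetic beads, which also bind other myeloid cells, and the mice used for the microglia lived under a reversed light-dark cycle. The labels say neither what the condition names stand for nor how many mice made up a library. They do not say whether both regions came from the same mice, nor do they tie Day to the lit phase of the reversed cycle, although the study's text places its microglia samplings in the light and the dark phase. The test between regions takes all libraries as separate. All p-values measure the spread between libraries, which may be partly technical.

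Total counts ran from 10156071 to 84472229 a library with a median of 15927536, and 3 hippocampal libraries held more than 2 times the median of their region. The 40 genes together took between 0.769% and 1.60% of a library's counts. The lowest count of any of them in any library was 17, for Gla in frontal cortex. Levels are given on the counts-per-million scale (CPM) of the TMM-scaled library. All adjusted p-values come from edgeR's quasi-likelihood test with Benjamini-Hochberg adjustment over all genes tested, and a gene is said to have risen or fallen where that value was below 0.05.

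Lysosomes are acidic organelles in which microglia break down what they engulf, such as synaptic material, myelin, dying cells and protein aggregates, together with worn-out parts of their own. Cathepsins are proteases of this compartment, and many of the other hydrolases cut sugars, lipids and glycoproteins with the help of small cofactors such as the saposins. Lgmn, placed here with the other hydrolases, is also a protease. The vacuolar-type ATPase pumps protons into the lysosome and so keeps the enzymes active, while heavily glycosylated membrane proteins line the inside and channels and carriers move ions and lipids out. Many lysosomal genes share a promoter element with the core CACGTG, which is bound by TFEB and its relatives. The same 6 letters form the E-box that circadian clock factors bind.

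The promoters of these genes were therefore read for those letters, in RefSeq windows on build GRCm38.p6. Each window ran from 250 bases before a RefSeq start of the gene to 50 bases after it. A gene with several windows counted if any of them held the letters, and Ctsa and Lgmn each also had a window without them. Of the 40 genes, 34 matched a window. CACGTG, which reads the same on both strands, was present for 13 of the 34 genes (38.2%) and for 8.09% of 27025 genes with a window. The longer palindrome TCACGTGA, which contains CACGTG, was present for 7 of 34 (20.6%) and for 1.12% of all. The same 8 letters with a G before and a C after them were found for 0 of 34 and for 0.37% of all. The windows of 30 bases below are shown because they hold the longer palindrome, in capitals, in genes whose levels are described further on; Gaa is added because it holds the shorter one.
Ctsa, chr2:164833749-164833778, plus strand: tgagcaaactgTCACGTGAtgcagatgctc
Ctsd, chr7:142387908-142387937, minus strand: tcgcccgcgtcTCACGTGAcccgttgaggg
Mcoln1, chr8:3500462-3500491, plus strand: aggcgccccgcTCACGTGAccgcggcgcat
Gla, chrX:134601215-134601244, minus strand: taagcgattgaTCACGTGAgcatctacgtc
Atp6v0d1, chr8:105566050-105566079, minus strand: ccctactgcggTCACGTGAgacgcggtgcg
Atp6v0e, chr17:26676387-26676416, plus strand: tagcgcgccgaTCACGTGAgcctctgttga
Atp6v1a, chr16:44139373-44139402, minus strand: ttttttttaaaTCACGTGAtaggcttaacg
Gaa, chr11:119267812-119267841, plus strand: ttctgtgcgatCACGTGtttgactctgact

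Counting as 0 the RefSeq start on which each window was set, the palindrome began at position -13 in Ctsa, -99 in Ctsd, -228 in Gla and -132 in Atp6v1a. That start need not be the first base of the gene. The windows shown for Ctsa, Ctsd, Mcoln1, Atp6v0e and Atp6v1a lay inside the gene by the GENCODE M21 bounds. Lamp1, which encodes a main glycoprotein of the lysosomal membrane, held 4 copies of CACGTG in the 110 bases just before its start, more than any other gene of the list, and they are shown in capitals.
Lamp1, chr8:13159051-13159160, plus strand: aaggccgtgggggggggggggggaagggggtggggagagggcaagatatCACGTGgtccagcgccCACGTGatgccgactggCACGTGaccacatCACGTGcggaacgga

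Cathepsins and a few other hydrolases made up most of the signal once counts were divided by exon length (GENCODE M21, GRCm38). Cathepsin S, a protease that stays active outside the lysosome, stood highest with 818 ± 126 CPM per kb in hippocampus and 884 ± 193 in frontal cortex (SD, n = 32 each). It was followed in hippocampus by Ctsd, the aspartic protease, at 548 ± 89.8, by Lgmn, the asparaginyl endopeptidase that trims cathepsins, at 515 ± 58.2, and by Psap, the saposin precursor, at 462 ± 55.9. The ranges over libraries of Ctsd, Lgmn and Psap overlapped, so their order was not resolved. The 9 cathepsins held 45.8% of the summed CPM per kb of the 40 genes in hippocampus and 46.8% in frontal cortex, the 15 other hydrolases 37.4% and 36.2%, the 8 membrane proteins 14% and 14.2%, and the 8 pump genes 2.83% and 2.81%. Atp6ap1, an accessory protein of the pump, was the highest pump gene at 40.8 ± 4.95 CPM per kb in hippocampus. Gla, alpha-galactosidase A, was the lowest of all 40 at 0.971 ± 0.249 in hippocampus and 0.887 ± 0.245 in frontal cortex.

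**Figure D1:**
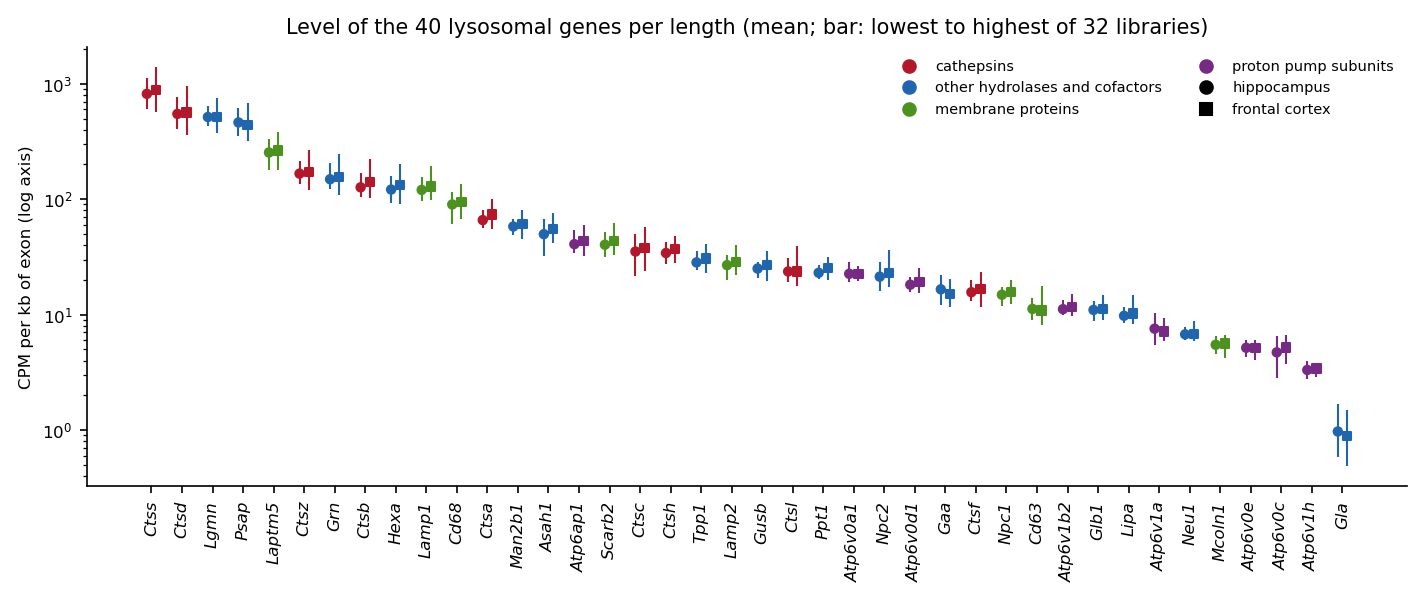
Level of each gene in CPM per kb of exon on a log axis, with circles for hippocampus and squares for frontal cortex, colours for the 4 classes, and bars from the lowest to the highest of 32 libraries. Ctss stands highest at 818 and 884 CPM per kb, and Gla lowest at 0.971 and 0.887.

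Some of these counts have limits set by the annotation. Exons of 9 of the 40 genes share bases with a gene on the opposite strand, among them Grn with Fam171a2 and Ctsb with Fdft1, and the strand setting of the counting was not given in the sources used here. On the same strand, Ctsd shares 34.4% of its exon bases with Gm49369, which had a count of 0 in every library. Glb1 shares 5.49% with Tmppe, whose counts came to 41.3% of those of Glb1. Cd63 and Atp6v0c have pseudogene copies in the table, with counts of 1.48% of those of Cd63 and of 0.336% of those of Atp6v0c, so a few reads of these genes may be placed either way.

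The comparison of Day with Night was made within each region over 16 libraries against 16. Cells of other types moved with it, and in bulk RNA fewer cells of a type and less RNA per cell cannot be told apart. The summed level of 11 microglia markers ran from 12294 to 17662 CPM in hippocampal Day libraries and from 10765 to 14950 in Night libraries, and 8 of the 11 rose in Day with a median log2 change of 0.30. In frontal cortex the sum ran from 13106 to 20814 in Day and from 10019 to 18014 in Night, with 5 of 11 risen and a median of 0.21. Of 10 markers of border macrophages, which also express cathepsins strongly, 10 rose in hippocampus (median 0.56; sums 948 to 1512 CPM in Day, 696 to 1136 in Night) and 7 in frontal cortex (median 0.39; sums 974 to 1602 and 789 to 1228). Markers of choroid plexus went the other way in hippocampus, where 10 of 10 fell with a median of -2.65 and a median sum of 271 CPM in Day against 1662 in Night. Of the astrocyte markers 7 of 8 fell in each region, of those of the oligodendrocyte lineage 7 of 8 in hippocampus and 5 of 8 in frontal cortex, of those of endothelial cells 5 of 8 and 1 of 8, and of neuronal markers 3 of 10 and 9 of 10. Among 4 tested markers of neutrophils and monocytes in hippocampus 1 rose and 1 fell, and 0 of 5 changed in frontal cortex by edgeR's test, with 0 at an unadjusted p below 0.05. No marker of any list was at 0 in all 16 libraries of a region and phase.

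Of the 40 lysosomal genes 23 rose in hippocampal Day libraries, 3 fell and 14 did not pass the test. Without replicate 2 of each group 13 rose, and without replicate 1 there were 15. Over all 15527 genes tested 42.2% changed, 23.4% upward and 18.8% downward. The median log2 change of the 40 was 0.13 against 0.02 over all genes, and 34 of 40 changes were above 0, but with scaling by library totals alone the median of the 40 was -0.03 and that of all genes -0.14. The distance between the list and all genes was 0.11 with the TMM scaling and 0.10 with library totals. A scaling shifts all genes of a library alike, so this distance could hardly differ and says nothing about which scaling is right. With a microglia marker score as covariate 1 of the 40 rose and 6 fell, and with a border macrophage score 0 rose and 1 fell. With the scores of the 7 cell types other than microglia 0 changed. Over all genes 3790, 834 and 122 changed under these settings, in that order, against 6550 as reported. The distance between the list and all genes became -0.04, -0.01 and 0.01 in the same order, and 18, 22 and 26 of the 40 changes were above 0. The cause of these shifts was not tested.

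The cathepsins had the highest median change, 0.23, and 8 of 9 rose; with library totals alone the median was 0.06. Ctsc, the dipeptidyl peptidase that activates granule proteases, lies at chr7:88278085-88310888. Its level ran from 211 to 290 CPM with a median of 231 in Day and from 126 to 231 with a median of 171 in Night. The lowest Day library lay above the Night median, and 8 of 16 Day libraries were above every Night library. The change was 0.52 ± 0.07 (log2, SE; adjusted p = 5.87e-07), or 43.3% higher in Day, and it was the only rise among the 40 that passed with library totals alone (0.34, adjusted p = 0.0206) or with the microglia score as covariate (0.32, adjusted p = 0.00438). With the border macrophage score it was 0.21 (adjusted p = 0.156).

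Ctsd ran from 1082 to 1791 CPM in Day with a median of 1370, and from 959 to 1341 in Night with a median of 1191. The ranges overlapped widely, and 8 of 16 Day libraries were above every Night library. It rose by 0.32 ± 0.07 (adjusted p = 0.000182). Among the others that rose, changes ran from 0.13 for Ctsa, the protective protein of neuraminidase and beta-galactosidase, to 0.29 for Ctss. Ctsl, a broad cysteine protease, did not pass (0.09 ± 0.06, adjusted p = 0.273; 124 to 200 CPM in Day and 135 to 174 in Night).

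Among the 15 other hydrolases and cofactors 7 rose and 2 fell in hippocampus, with a median of 0.14 that was -0.03 with library totals alone. Asah1, acid ceramidase, ran from 164 to 227 CPM in Day (median 186) and from 109 to 197 in Night (median 148). Day libraries were shifted upward as a group and 5 of 16 lay above every Night library. It rose by 0.40 ± 0.07 (adjusted p = 1.40e-05). Grn, the progranulin gene, whose product is cut into granulins in the lysosome, ran from 472 to 708 CPM in Day (median 564) and from 424 to 536 in Night (median 459). The Day range reached much higher, with 9 of 16 Day libraries above every Night library. Grn rose by 0.30 ± 0.06 (adjusted p = 3.97e-05). Hexa, which degrades gangliosides, rose by 0.26 and Npc2, the soluble cholesterol carrier, by 0.19, while Tpp1, Man2b1 and Neu1 rose by 0.18, 0.15 and 0.10.

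Both hydrolases that fell in hippocampus were glycosidases. Gla ran from 1.92 to 3.20 CPM in Day (median 2.73) and from 2.17 to 5.51 in Night (median 3.51). Every Day library lay below the Night median, and 2 of 16 were below every Night library. It fell by 0.43 ± 0.10 on the log2 scale (adjusted p = 0.000672). Gaa, the acid alpha-glucosidase that breaks down glycogen, ran from 57.8 to 87.9 CPM in Day (median 70.5) and from 70.1 to 105 in Night (median 89.5). Here 8 of 16 Day libraries were below every Night library, and Gaa fell by 0.26 ± 0.06 (adjusted p = 0.00127). The mean of each gene was lower in Day in all 4 conditions. Choroid plexus markers fell in the same libraries, but their part in these falls was not tested. With the scores of the 7 other cell types as covariates the change was -0.42 for Gla (adjusted p = 0.441) and -0.07 for Gaa (adjusted p = 0.847). That fit called 122 of all genes. Psap (0.14 ± 0.06, adjusted p = 0.0527) and Lgmn (0.14 ± 0.06, adjusted p = 0.0555) did not pass, and neither did Glb1, Gusb, Lipa and Ppt1, with changes from -0.03 to 0.09.

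**Figure D2:**
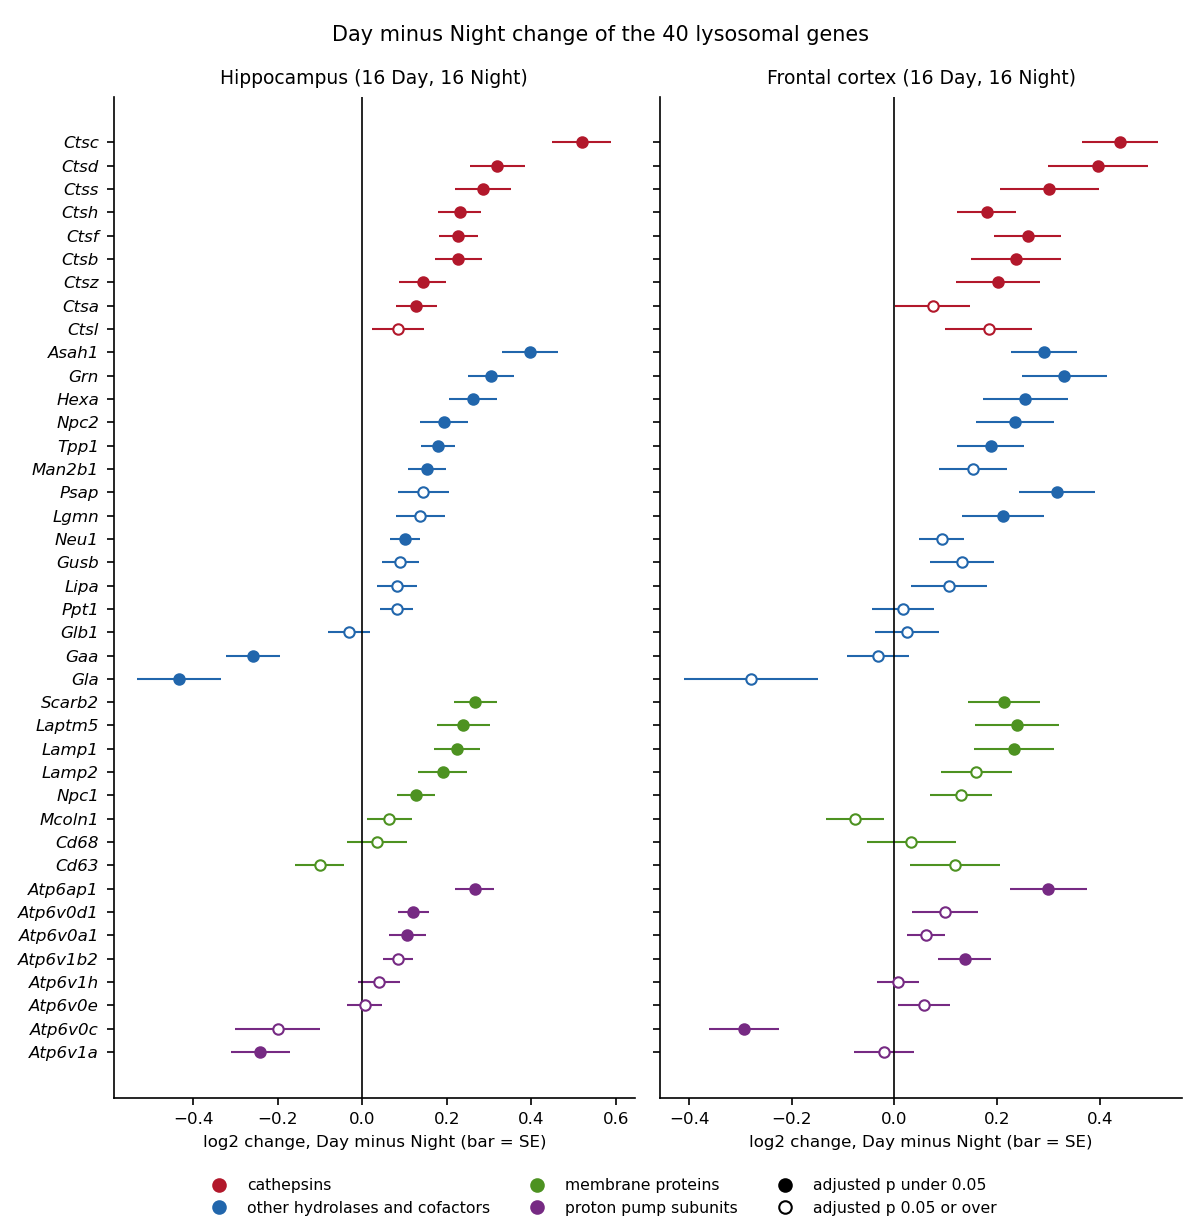
Log2 change of each gene, Day minus Night, with its SE (bar), in hippocampus and frontal cortex (16 Day and 16 Night libraries each), coloured by class and filled where the adjusted p was below 0.05. Filled points sit right of 0 for 23 genes in hippocampus and 19 in frontal cortex with TMM scaling (1 and 4 with library totals alone), and left of 0 for 3 and 1. Over all genes 3637 and 3083 rose with TMM scaling, and 262 and 653 with library totals alone.

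Of the 8 membrane proteins 5 rose and 0 fell in hippocampus, with a median of 0.16 that was -0.0030 with library totals alone. Scarb2, the receptor that carries glucocerebrosidase to lysosomes, ran from 236 to 324 CPM in Day (median 261) and from 198 to 274 in Night (median 233). Its Day libraries were the higher group, with 7 of 16 above every Night library. Scarb2 rose by 0.27 ± 0.05 (adjusted p = 8.19e-05). Laptm5, a transmembrane protein of blood-lineage cells, rose by 0.24 ± 0.06 (adjusted p = 0.00242; 872 to 1270 CPM in Day, 679 to 1059 in Night). Lamp1 and Lamp2, the main glycoproteins of the lysosomal membrane, rose by 0.22 and 0.19, and Npc1, the cholesterol exporter, by 0.13. Cd68, a macrophage glycoprotein often stained to show phagocytic activity, did not pass (0.03 ± 0.07, adjusted p = 0.732). Its levels in Day (91.7 to 144 CPM) lay within those in Night (77.0 to 145). With the microglia score as covariate it fell, by 0.24 here (adjusted p = 0.00480) and by 0.21 in frontal cortex (adjusted p = 0.00170). Cd63, a tetraspanin, did not pass either (-0.10 ± 0.06, adjusted p = 0.165), though it was among the 4 genes that fell with library totals alone, nor did the calcium channel Mcoln1 (0.06).

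Among the proton pump genes 3 of 8 rose and 1 fell in hippocampus, and the median change was 0.06, which was -0.09 with library totals alone. Atp6ap1, at chrX:74297097-74304721, ran from 114 to 162 CPM in Day (median 128) and from 103 to 123 in Night (median 114). The lowest Day library lay near the Night median, and 12 of 16 Day libraries were above every Night library, the most for any of the 40 genes. Atp6ap1 rose by 0.27 ± 0.05 (adjusted p = 2.26e-05). The membrane-sector subunits Atp6v0d1 and Atp6v0a1 rose by 0.12 ± 0.04 and 0.11 ± 0.04 (adjusted p = 0.00887 and 0.0489). Atp6v1a, the catalytic subunit, fell by 0.24 ± 0.07 (adjusted p = 0.00528), from a Night median of 50.4 CPM (37.8 to 62.5) to a Day median of 40.4 (32.7 to 51.5). The ranges overlapped, with 4 of 16 Day libraries below every Night library. With the scores of the 7 other cell types as covariates the change of Atp6v1a was 0.06 (adjusted p = 0.857). Atp6v0c, which forms the proton-conducting ring, did not pass (-0.20 ± 0.10, adjusted p = 0.110), nor did Atp6v1b2, Atp6v0e and Atp6v1h, with changes from 0.01 to 0.08.

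**Figure D3:**
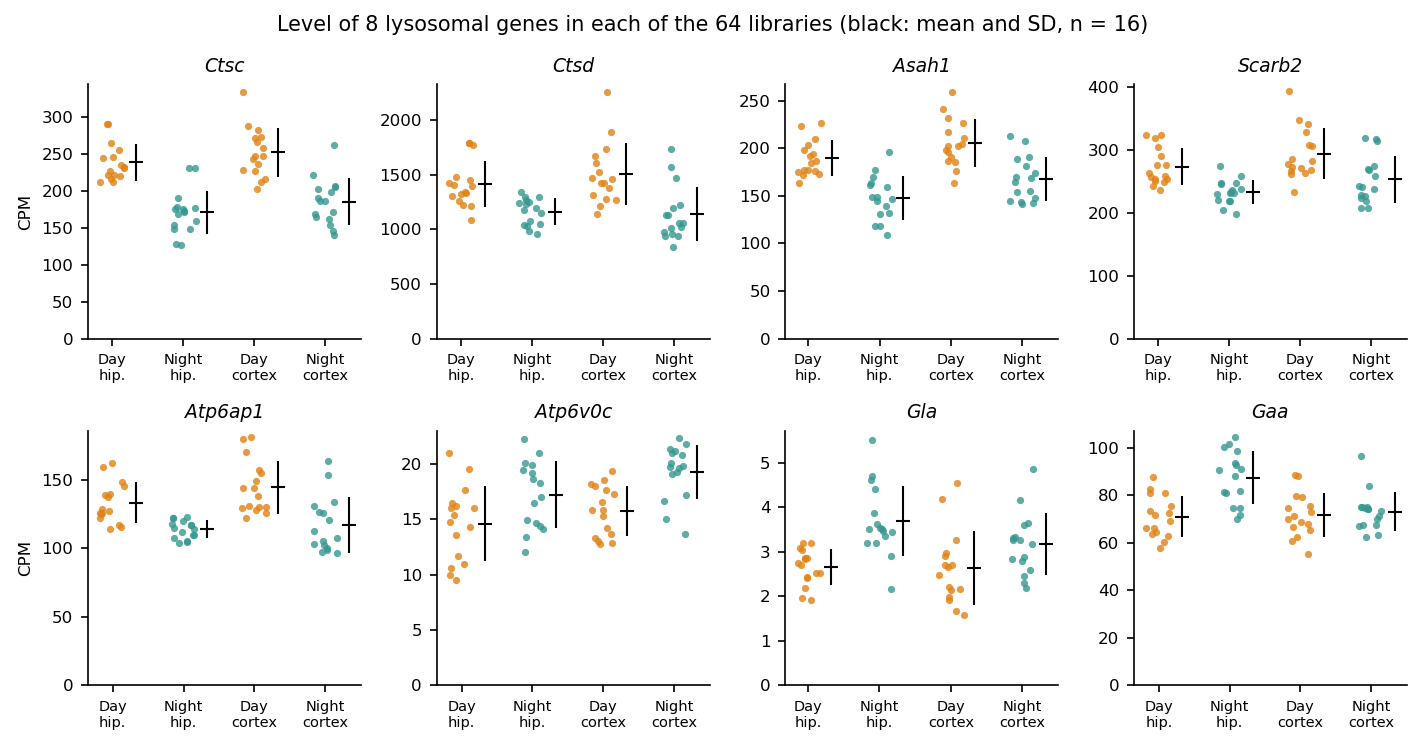
CPM of 8 genes in each library, by phase and region, with the mean and SD of 16 libraries in black. The 16 hippocampal Day libraries of Atp6ap1 sit between 114 and 162 CPM against 103 to 123 in Night, while those of Gaa sit between 57.8 and 87.9 against 70.1 to 105.

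In frontal cortex 19 of the 40 rose, 1 fell and 20 did not pass, against 41.8% of 14975 genes that changed there, 20.6% upward and 21.3% downward. The median change of the 40 was 0.16 against -0.02 over all genes; with library totals alone it was 0.08 against -0.09. With the microglia score as covariate 4 of the 40 rose and 7 fell, and with the border macrophage score 0 rose and 1 fell. With the scores of the 7 other cell types 6 rose and 1 fell. Over all genes 3990, 2285 and 4095 changed under these settings, in that order, against 6266 as reported. The distance between the list and all genes was -0.0056, 0.11 and 0.20 in the same order, against 0.17 as reported. The count was lower without replicate 2 of each group (7 risen), replicate 1 (8 risen) or replicate 3 (12 risen) than without replicate 4 (23 risen).

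Cathepsins again had the highest median change, 0.24, or 0.16 with library totals alone, and 7 of 9 rose. Ctsc ran from 202 to 333 CPM in Day (median 247) and from 140 to 262 in Night (median 186). Its Day libraries were the higher group, though only 6 of 16 exceeded every Night library. It rose by 0.44 ± 0.07 (adjusted p = 2.55e-05), or 35.6%. Ctsd ran from 1142 to 2257 CPM in Day (median 1445) and from 840 to 1737 in Night (median 1059), and rose by 0.40 ± 0.10 (adjusted p = 0.00159). Ctsl (0.18, adjusted p = 0.0792) and Ctsa (0.07, adjusted p = 0.428) did not pass. Ctsc and Ctsd were also 2 of the 4 genes that rose with the microglia score as covariate, with Psap and Asah1.

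Among the other hydrolases 7 of 15 rose and 0 fell in frontal cortex. The 2 largest rises were those of Grn (0.33 ± 0.08, adjusted p = 0.00174) and Psap (0.32 ± 0.07, adjusted p = 0.000932). Psap ran from 1098 to 1855 CPM in Day (median 1301) and from 877 to 1489 in Night (median 1021), and 4 of 16 Day libraries were above every Night library. Asah1, Hexa, Npc2, Lgmn and Tpp1 rose by 0.29, 0.26, 0.23, 0.21 and 0.19. Gla lay at 1.58 to 4.53 CPM in Day and 2.18 to 4.85 in Night and did not pass (-0.28 ± 0.13, adjusted p = 0.0819), though it fell with library totals alone, and Gaa had nearly the same level in both phases (-0.03 ± 0.06, adjusted p = 0.688). Of the membrane proteins 3 of 8 rose, namely Laptm5 (0.24 ± 0.08, adjusted p = 0.0185), Lamp1 (0.23 ± 0.08, adjusted p = 0.0153) and Scarb2 (0.21). Cd68 was again flat, with a change of 0.03 ± 0.09 (adjusted p = 0.782).

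Of the pump genes Atp6ap1 and Atp6v1b2 rose by 0.30 ± 0.08 and 0.14 ± 0.05 (adjusted p = 0.00185 and 0.0307), and 1 fell. Atp6v0c, at chr17:24163866-24169702, ran from 12.7 to 19.4 CPM in Day (median 15.9) and from 13.6 to 22.4 in Night (median 19.8). The Day libraries were the lower group, and 4 of 16 were below every Night library. It fell by 0.29 ± 0.07 (adjusted p = 0.000945), and it was also the only fall that passed with the border macrophage score or with the 7 scores as covariates. The median over the pump genes was 0.06, or -0.01 with library totals alone.

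Across both regions 16 of the 40 (40%) rose in each, against 17.1% of the 14917 genes tested in both. These 16 were 69.6% of the hippocampal and 84.2% of the cortical rises, and the corresponding shares over all genes were 70.4% and 82.7%. None of the 40 changed in opposite directions, and 10 passed in neither region. Of the 14917 genes 14 changed in opposite directions and 6772 passed in neither. When the regional changes were set against each other directly, 0 of the 40 differed by edgeR's test and by DESeq2 (by edgeR 1.19% of 16069 genes did, 0.859% with a lower change in hippocampus), and 4 had an unadjusted p below 0.05. They were Gaa (difference -0.27 ± 0.09, adjusted p = 0.119), Atp6v1a (-0.26 ± 0.09, adjusted p = 0.168), Cd63 (-0.26 ± 0.11, adjusted p = 0.302) and Psap (-0.21 ± 0.09, adjusted p = 0.374). All had a lower change in hippocampus. With the microglia score as covariate 2 of the 40 differed, Psap and Gaa, and 233 of all genes did.

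The same changes can be set out by promoter letters. In hippocampus 5 of the 13 with the letters rose and 3 fell, Gaa, Gla and Atp6v1a, while 14 of the 21 without them rose and 0 fell. The median changes were 0.09 and 0.15. In frontal cortex 4 of 13 rose and 0 fell, against 11 risen and 1 fallen of 21, with medians of 0.07 and 0.19. These counts are a description of the windows searched, and no test was run on them.

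Within single conditions the same comparison rests on 4 libraries against 4. In hippocampus the Day mean was higher in all 4 conditions for 22 of the 40 genes (24.2% of all genes tested) and lower in all 4 for 5 (28.3% of all). In frontal cortex the numbers were 27 and 1 (27.5% and 28.2% of all). For none of the 40 did all Day libraries lie above or below all Night libraries, which held for 0.316% and 0.142% of all genes in hippocampus and for 0.307% and 0.0467% in frontal cortex. Ctsc, for example, averaged 236, 231, 256 and 230 CPM in the Soci, Cogn, Ctr0 and Ctr1 hippocampal Day groups and 176, 181, 161 and 165 in the Night groups (SD between 10.4 and 43.2, n = 4 each).

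Averaged over the genes of a class, the mean log2 CPM of the cathepsins was lowest in frontal cortex Night Ctr1 (8.15 ± 0.18, SD, n = 4) and highest in frontal cortex Day Soci (8.60 ± 0.31). Day was above Night in 8 of 8 pairs of groups with the same region and condition, by 0.13 to 0.32. For membrane proteins it was above in 8 of 8, by 0.05 to 0.19, and for the other hydrolases in 7 of 8; with library totals alone these became 5 and 4 of 8. For the pump genes Day was above in 5 of 8, with differences from -0.07 to 0.07, and in 1 of 8 with library totals alone. The 4 libraries of frontal cortex Night Cogn were the most spread for cathepsins, from 7.97 to 8.70.

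**Figure D4:**
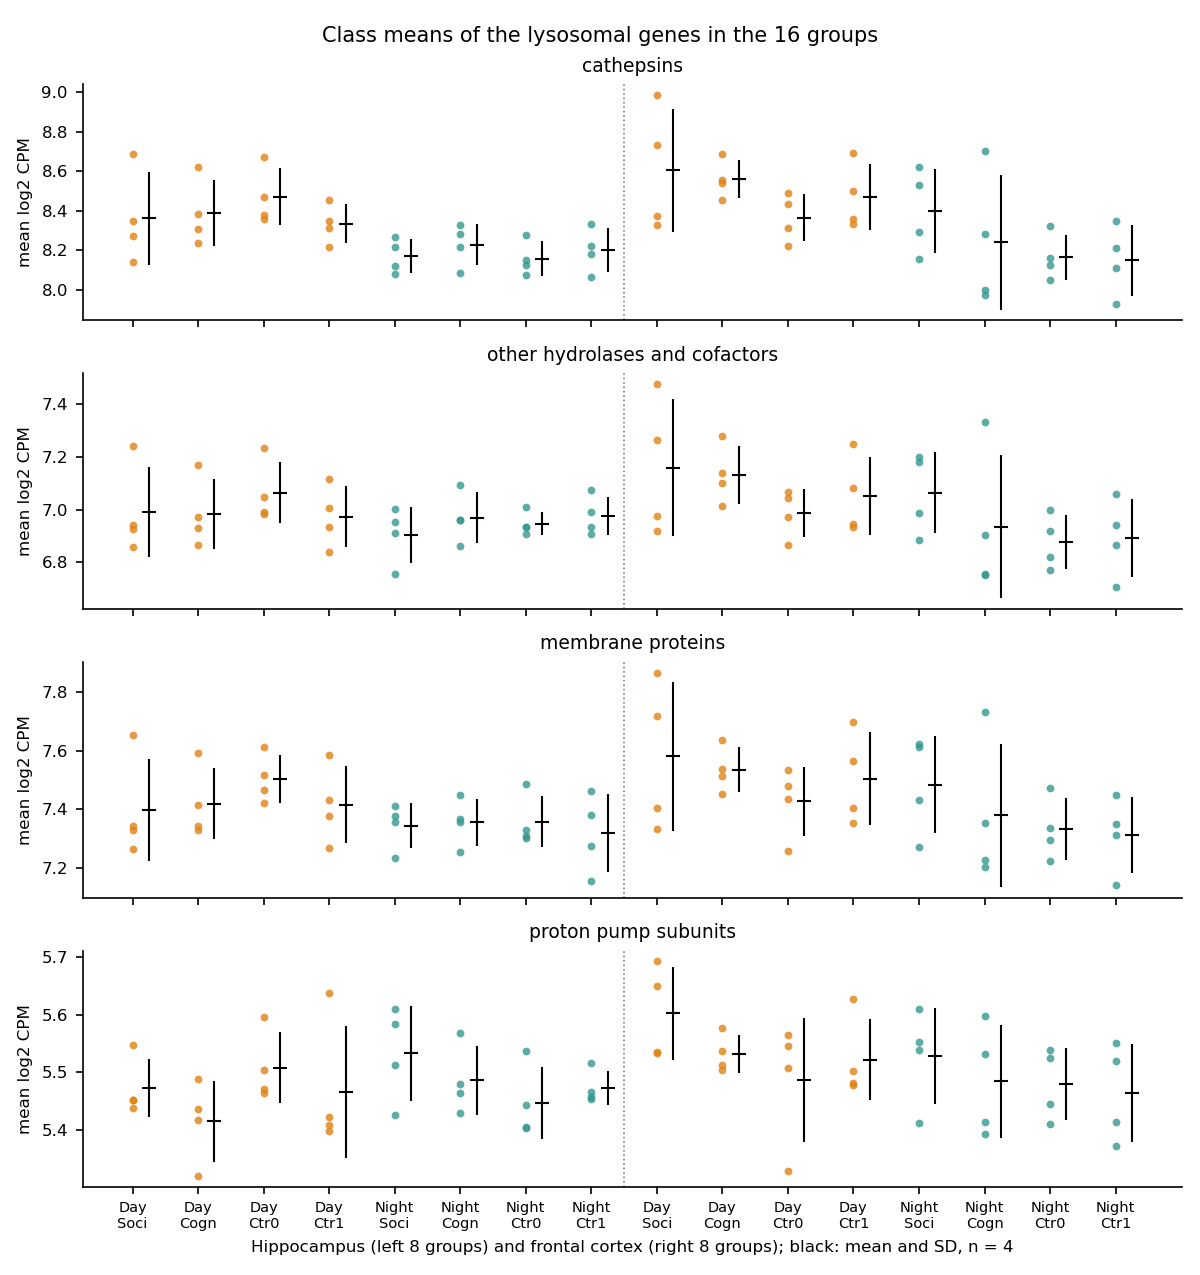
Mean log2 CPM over the genes of each class in every library, for the 16 groups of 4, with the group mean and SD in black. Cathepsin means lie between 8.15 and 8.60 and are higher in Day in 8 of 8 region and condition pairs; pump gene means lie between 5.41 and 5.60 and are higher in Day in 5 of 8 (1 of 8 with library totals alone).

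The conditions were compared within each region over both phases. None of the 40 genes passed in hippocampus or in frontal cortex (edgeR; lowest adjusted p = 0.668 and 0.720), and over all genes 0 passed in each. At an unadjusted p below 0.05 there were 0 in hippocampus and 4 in frontal cortex, which were Ctsd, Ctsl, Gusb and Atp6v0a1. DESeq2 called 0 of the 40 in each region. With library totals alone 4 of the 40 passed in hippocampus, Mcoln1, Atp6v0e, Gusb and Tpp1. Over all genes 3862 of the 16826 tested passed under that setting, a larger share. Whether the Day to Night change depended on the condition was tested in the same fits, and 0 of the 40 passed by edgeR and by DESeq2 in either region (lowest adjusted p = 0.974 and 1; 1 gene, Atp6v0a1, below an unadjusted 0.05 in hippocampus and 0 in frontal cortex). Over all genes 0% passed in hippocampus and 0.00616% in frontal cortex by edgeR. Each of these tests rests on 8 libraries a condition in each region. In simulated data the test of conditions recovered 18 of 100 genes changed 1.2-fold in 1 condition, in either region. The test of phase by condition recovered 0 of 100 such genes in hippocampus, so small effects of the conditions could go unseen.

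Between hippocampal and cortical microglia, of the 40, 7 were lower in hippocampus and 1 was higher, against 6.17% and 10.4% of 16069 genes tested (16.6% in all). The median difference, hippocampus minus frontal cortex, was -0.07 against -0.0046 for all genes, and 32 of 40 were negative. Ppt1, which removes palmitate from proteins, was at 23.0 ± 1.70 CPM per kb in hippocampus and 25.3 ± 2.99 in frontal cortex (SD, n = 32 each; log2 difference -0.13 ± 0.04, adjusted p = 0.00522). Ctsa was at 65.9 ± 6.41 and 73.5 ± 10.9 (-0.16 ± 0.04, adjusted p = 0.00754), and Asah1 at 49.8 ± 8.78 and 55.1 ± 9.0 (-0.15 ± 0.05, adjusted p = 0.0156). The libraries of both regions overlapped for each. Ctsb (-0.16), Tpp1 (-0.11) and Gusb (-0.11) were the next by p. Without replicate 3 of each group 0 of the 40 were lower (1382 of all genes called, against 2667 as reported). Without replicate 1 there were 13 (3518 called). With the microglia score as covariate 3 were lower, Ctsa, Ppt1 and Atp6v0c, of which the last had not passed before, and 5 were higher (2462 called). With the border macrophage score 1 was lower, Ppt1 (1810 called). Cell type markers differed between the regions too. Those of border macrophages were lower in hippocampus for 10 of 10 (median -0.25, 4 past the test), those of microglia for 10 of 11 (median -0.11, 3 past the test) and those of neutrophils and monocytes for 7 of 7 (median -0.76, 5 past the test), and 10 of 10 of choroid plexus were higher with a median of 2.93. Their part in the result was not tested beyond these covariates.

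The wider lysosomal system was read from lists of genes outside the 40, against the 42.2% and 41.8% of all genes that changed in hippocampus and frontal cortex. In hippocampus 6 of 15 further membrane proteins, 5 of 11 pump genes and 6 of 15 sorting genes changed, shares near that background. Of 27 further hydrolases tested 12 rose and 3 fell in hippocampus and 11 rose and 2 fell in frontal cortex. The largest rise was that of Pla2g15, a lysosomal phospholipase (0.34 ± 0.05 and 0.39 ± 0.08), and the largest fall that of Galns, a sulfatase of keratan sulfate (-0.56 ± 0.06 and -0.41 ± 0.05). Galns also fell with the microglia score as covariate (-0.58 and -0.46; adjusted p = 1.06e-05 and 5.37e-07). Of 15 further membrane proteins 4 rose and 2 fell in hippocampus and 5 rose and 3 fell in frontal cortex, led by the sialomucin Cd164 (0.63 ± 0.07 and 0.58 ± 0.09) and the peptide transporter Abcb9 (-0.54 ± 0.12 and -0.73 ± 0.13). Of 11 further pump genes 3 rose and 2 fell in hippocampus, 4 and 2 in frontal cortex. Here Atp6ap2, the other accessory protein, rose in each region (0.26 ± 0.06 and 0.45 ± 0.09), and the subunit isoform Atp6v0e2 fell (-0.38 ± 0.15 and -0.74 ± 0.16).

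Of 15 genes that sort enzymes to lysosomes 5 rose and 1 fell in each region. Sort1, the sortilin receptor, rose by 0.37 in each (SE 0.05 and 0.07), and Igf2r, the cation-independent mannose 6-phosphate receptor, fell by 1.39 ± 0.17 in hippocampus and by 0.69 ± 0.14 in frontal cortex. With the scores of the 7 other cell types as covariates the change of Igf2r was -0.27 in hippocampus (adjusted p = 0.572) and 0.05 in frontal cortex (adjusted p = 0.841). Choroid plexus markers fell in the same hippocampal libraries, and their part in the fall of Igf2r was not tested. Of 14 regulators 6 rose and 1 fell in hippocampus and 4 rose and 1 fell in frontal cortex. Fnip1, a partner of folliculin, had the largest rise in hippocampus (0.30 ± 0.05) and the transcription factor Mitf in frontal cortex (0.35 ± 0.06), while Rragd, a GTPase that brings mTORC1 to the lysosome, fell by 1.11 ± 0.15 and 1.13 ± 0.18. With the 7 scores as covariates the change of Rragd was -0.31 and 0.09 (adjusted p = 0.627 and 0.776). Tfeb, named here after its values were seen, rose by 0.15 ± 0.05 in each region (adjusted p = 0.00794 and 0.0159). Of 3 cystatins, the secreted inhibitors of cathepsins, Cst3 rose (0.24 ± 0.08 and 0.31 ± 0.09) and the other two did not pass.

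How far the counts of lysosomal genes moved with the settings of the analysis is shown by the plot of calls. Scaling by median-of-ratios size factors, leaving out the genes above 1% of all counts, DESeq2, the condition as covariate and leaving out the 3 deep libraries gave 18 to 23 rises in hippocampus and 18 to 21 in frontal cortex. The 3 deep libraries were all hippocampal, so leaving them out did not change the frontal cortex fit. Leaving out single replicate numbers gave 13 to 21 and 7 to 23. Other settings with far fewer were library totals alone (1 and 4), where the gene Gm26917 alone held 35.4% of all counts, and the marker scores as covariates (0 to 1 and 0 to 6). Under these settings calls over all genes fell too, to between 122 and 4293 in hippocampus and between 2285 and 4095 in frontal cortex.

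**Figure D5:**
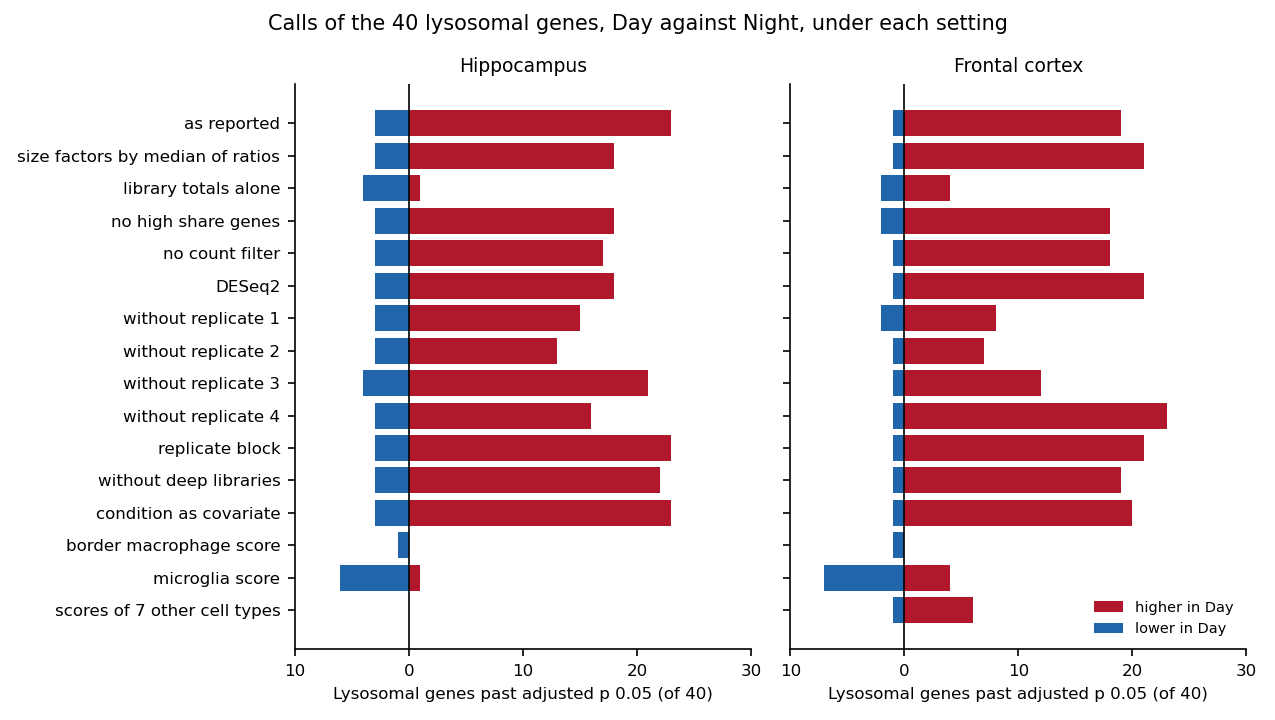
Number of the 40 genes past an adjusted p of 0.05, higher (right) or lower (left) in Day, under each setting and in each region. The analysis as reported gives 23 and 3 in hippocampus and 19 and 1 in frontal cortex. The microglia score as covariate gives 1 and 6, and 4 and 7, while calls over all genes go from 6550 to 3790 and from 6266 to 3990.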

How the data were processed

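Microglia of 2 brain regions were profiled by single-end sequencing of rRNA-depleted total RNA. Per the labels and the study's methods, the authors mapped reads to GRCm38.p5 with STAR 2.7.3a and assigned them to genes with featureCounts (Subread 2.0.0); the deposited table holds raw counts per gene and library. Strand and multi-mapping settings are not given in the sources used here. Every library column was mapped to a sample through its title.

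Gene symbols came from GENCODE M21 (345 of 49671 genes had none, and 16424 had no reads). Counts were filtered with filterByExpr, scaled by TMM and tested with edgeR 4.0.16 (quasi-likelihood, R 4.3.3, Benjamini-Hochberg adjustment, threshold 0.05): Day against Night within a region, conditions and their interaction with phase within a region, and regions and region by phase over all 64 libraries. Class levels used log2 CPM with a prior count of 2. Alternatives were median-of-ratios scaling, library totals alone, no genes above 1% of counts, no filter, DESeq2 1.42.0, leaving out each replicate number, a replicate block, no libraries above 2 times the regional median, the condition as covariate, and marker scores (the mean centred log2 CPM of a list) as covariates. Scripts were tested on simulated data. Promoter motifs were searched with Python 3.11.15.

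All 40 genes could be named. Full statistics were given for the 2 largest rises and falls of a class and region, members past the threshold in other comparisons were named up to 6 by p, and of each further list the largest rise and fall. The members and lists were chosen with earlier results of these data known. Depth ran from 10156071 to 84472229 counts a library.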

Additional observations from a re-analysis of the deposited data

Results flagged for a closer look

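In 4 of the 64 class and group combinations 1 library stood away from the other 3 of its group by Dixon's criterion, where chance gives about 3.2 (1 in 20). For membrane proteins, hippocampus Night Ctr0 replicate 4 had a mean log2 CPM of 7.49 against 7.30 to 7.33 in the other 3. For proton pump genes, hippocampus Day Soci replicate 2 was at 5.55 against 5.44 to 5.45, hippocampus Day Ctr1 replicate 1 at 5.64 against 5.40 to 5.42, and frontal cortex Day Ctr1 replicate 3 at 5.63 against 5.48 to 5.50. All 4 were high rather than low.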

How the results depend on the processing

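The analysis as reported gave 23 rises and 3 falls among the 40 genes in hippocampus (6550 of all genes called) and 19 and 1 in frontal cortex (6266 called). Scaling with median-of-ratios size factors, no count filter, DESeq2, the condition as covariate, the replicate block and leaving out the 3 deep libraries (a change in hippocampus alone) kept each of these counts within 1.5 times. Leaving out genes above 1% of counts did so except for the falls in frontal cortex (2). Library totals alone, the marker scores and leaving out some replicate numbers moved at least one of them; the cause was not tested.

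With library totals alone 1 rose and 4 fell in hippocampus (4293 called) and 4 rose and 2 fell in frontal cortex (4065 called); of all calls 6.10% were rises in hippocampus and 16.1% in frontal cortex, against 55.5% and 49.2% as reported. The range of class means over the 16 groups became 0.670 for cathepsins, 0.524 for other hydrolases, 0.565 for membrane proteins and 0.574 for pump genes, from 0.455, 0.284, 0.269 and 0.188, and Day was higher in 5 of 8 pairs for membrane proteins, 4 for other hydrolases and 1 for pump genes. The conditions in hippocampus then gave 4 of the 40 and 3862 of the 16826 genes tested. Between regions 15 of the 40 were lower in hippocampus than in frontal cortex (2539 of all genes called).

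With the border macrophage score 0 rose and 1 fell in hippocampus (834 called) and 0 rose in frontal cortex (2285). With the microglia score 1 rose and 6 fell in hippocampus (3790) and 4 rose and 7 fell in frontal cortex (3990). With the scores of the 7 other cell types 0 rose and 0 fell in hippocampus (122) and 6 rose in frontal cortex (4095).

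Leaving out each replicate number in turn gave 13 to 21 rises and 3 to 4 falls in hippocampus (4319 to 7356 called) and 7 to 23 rises and 1 to 2 falls in frontal cortex (3941 to 6403). Between regions it gave 0 to 13 lower and 0 to 1 higher of the 40 (1322 to 3518 called), for region by phase 15 to 224 genes called, for the conditions in hippocampus 0 to 328, and for phase by condition in frontal cortex 0 to 0.

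Between regions, 7 of the 40 were lower and 1 higher as reported. The count lower was 1 with the border macrophage score, 3 with the microglia score or the 7 scores, 4 without the count filter and 12 without the genes above 1%. Over all genes 1810, 2462, 2959, 2692 and 3141 were called under these 5 settings, in that order, against 2667 as reported. The count higher was 5 with the microglia score and 0 with the border macrophage score, the 7 scores, library totals alone, median-of-ratios factors, DESeq2, no count filter, no genes above 1% and without the deep libraries. For region by phase the microglia score gave 2 lower of the 40 (233 of all genes called), the 7 scores 1 (2778 called), and leaving out the deep libraries 107 called. Among all genes DESeq2 called 6 and 1 for conditions in hippocampus and frontal cortex and 12 and 9 for phase by condition; no count filter called 1 for conditions in frontal cortex, and for phase by condition in frontal cortex library totals alone and the omission of genes above 1% called 0.

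The deviations of same-numbered libraries from their group means did not correlate uniformly. In hippocampus the correlations ran from -0.64 to 0.75 (40 of 112 pairs over 0.1). In frontal cortex they ran from -0.50 to 0.67 (49 of 112). Their median was 0.011 in hippocampus and 0.041 in frontal cortex, against -0.0087 and -0.035 for libraries with different numbers. In hippocampus 11 of 32 libraries correlated best with their own number, and in frontal cortex 14 of 32. Whether libraries shared structure by replicate number was not tested beyond these values and the replicate block. The replicate block gave 23 rises and 3 falls in hippocampus and 21 and 1 in frontal cortex, 2 genes for the conditions in hippocampus and 0 for phase by condition in frontal cortex.

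Of the 40 genes the direction turned for 18 in hippocampus and 6 in frontal cortex with library totals alone, for 12 and 5 with the border macrophage score, for 16 and 19 with the microglia score and for 10 and 5 with the 7 scores. Under the other settings it turned for 0 to 2 in hippocampus and 0 to 4 in frontal cortex. Among the genes whose changes are given singly above, lists outside the 40 included, those that turned had these values (log2, Day minus Night). With library totals alone in hippocampus these were Ctsa -0.041, Ctsz -0.020, Neu1 -0.054, Man2b1 -0.011, Npc1 -0.037, Atp6v0a1 -0.055, Atp6v0d1 -0.040, Ctsl -0.082, Cd68 -0.14, Psap -0.018, Lgmn -0.031, Atp6v1b2 -0.074 and Tfeb -0.0079, and in frontal cortex Cd68 -0.042. With the border macrophage score they were Ctsa -0.025, Man2b1 -0.0041, Npc2 -0.00046, Ctsl -0.084, Cd68 -0.066, Psap -0.022 and Lgmn -0.024 in hippocampus and Cd63 -0.029 and Ctsa -0.0080 in frontal cortex. With the microglia score they were Ctsa -0.077, Ctsz -0.077, Man2b1 -0.019, Npc2 -0.015, Lamp1 -0.0099, Lamp2 -0.027, Npc1 -0.064, Laptm5 -0.035, Ctsl -0.12, Cd68 -0.24, Psap -0.035, Lgmn -0.11 and Cst3 -0.056 in hippocampus and Ctsb -0.014, Ctsz -0.034, Lgmn -0.018, Laptm5 -0.0025, Ctsl -0.052, Cd68 -0.21, Cd63 -0.11, Ctsa -0.13, Lamp2 -0.033 and Npc1 -0.048 in frontal cortex. With the 7 scores they were Ctsa -0.14, Ctsh -0.027, Man2b1 -0.025, Atp6v0d1 -0.023, Atp6v1a 0.060, Cd68 -0.18, Lgmn -0.010 and Atp6v0e2 0.55 in hippocampus and Gaa 0.23, Atp6v1a 0.13, Abcb9 0.15, Igf2r 0.053 and Rragd 0.087 in frontal cortex. When single replicate numbers were left out, Cd68 ran from -0.078 (without replicate 3) to 0.069 in hippocampus, with -0.059 without replicate 2, and from -0.0038 (without replicate 2) to 0.11 in frontal cortex, and without replicate 4 Gaa was 0.035 and Atp6v1a 0.022 in frontal cortex.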
